A study of Mus musculus with 95 samples.

Results

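The NMDA receptor genes Grin1, Grin2a, Grin2b, Grin2c, Grin2d and Grin3a were followed through RNA-seq read counts of mouse brain. They were taken by gene symbol from the deposited count table, where each symbol stood on 1 row, and are 6 of the 54532 genes listed. The 95 libraries came from 2 mouse lines on a C57BL/6 background in which Cre under a Nex or a Dlx driver removes the gene for FKBP51 (Fkbp5), a co-chaperone of the glucocorticoid receptor. Nex-driven Cre acts in forebrain glutamatergic neurons and Dlx-driven Cre in forebrain GABAergic neurons, so cells outside the driver's reach still carry the gene in knockouts. Dorsal hippocampus and bed nucleus of the stria terminalis were taken from knockout and wild-type males and females of both lines, which gave 16 groups of 6 libraries each apart from Nex hippocampus knockout males with 5. All mice were untreated, and their age and the Cre status of the wild types are not given in the labels used here. The series' design text gives 5 to 6 mice per condition, which these group sizes match.

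NMDA receptors are glutamate-gated cation channels that pass calcium and open only when glutamate and a co-agonist, glycine or D-serine, are bound while depolarisation relieves a magnesium block. Every receptor needs the GluN1 subunit, encoded by Grin1, and assembles it with GluN2 subunits (Grin2a to Grin2d) or GluN3 subunits (Grin3a). GluN2A and GluN2B are the main partners in forebrain principal neurons and set the time course of the current. GluN2C is known from cerebellar granule cells and also from thalamus and astrocytes, GluN2D from interneurons and the diencephalon, and GluN3A lowers the calcium permeability and magnesium block of the channels it joins.

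On the minus strand of the mouse genome, at the coordinates shared by the count table and GENCODE M21 on GRCm38, Grin1 spans chr2:25291181-25319187, Grin2a chr16:9567898-9995560, Grin2b chr6:135713233-136173511, Grin2c chr11:115249169-115267243, Grin2d chr7:45831883-45878378 and Grin3a chr4:49661611-49845744. All 6 are protein coding. The antisense transcript Grin1os shares 1307 exon bases with Grin1, and Gm45441 overlaps exons of Grin2d. No source used here says whether the counting used strand, so reads from those stretches cannot be told apart. The median Grin1os count was 4.42% of the Grin1 count, and that of Gm45441 was 2.94% of the Grin2d count.

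Promoter sequences were held in the RefSeq table for 3 of the 6 genes, and these 3 also stand for the 3 regional patterns reported below: Grin1 was higher in hippocampus, Grin2c had no called difference and Grin2d was lower in hippocampus. Each stretch runs 5′ to 3′ along the gene's strand from 250 bases before to 50 bases after the RefSeq start on GRCm38.p6, with GC boxes (GGGCGG or its reverse complement) in capitals. The Grin1 promoter lies at chr2:25319138-25319437, that of Grin2c at chr11:115267194-115267493 and that of Grin2d at chr7:45866632-45866931, which is a start inside the longer GENCODE gene.
Grin1: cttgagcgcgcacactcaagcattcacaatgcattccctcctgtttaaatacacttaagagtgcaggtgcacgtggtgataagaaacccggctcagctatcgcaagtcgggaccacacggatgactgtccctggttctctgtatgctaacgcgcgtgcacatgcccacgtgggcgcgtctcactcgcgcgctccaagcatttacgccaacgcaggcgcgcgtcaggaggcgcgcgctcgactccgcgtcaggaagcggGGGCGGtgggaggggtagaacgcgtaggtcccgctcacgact
Grin2c: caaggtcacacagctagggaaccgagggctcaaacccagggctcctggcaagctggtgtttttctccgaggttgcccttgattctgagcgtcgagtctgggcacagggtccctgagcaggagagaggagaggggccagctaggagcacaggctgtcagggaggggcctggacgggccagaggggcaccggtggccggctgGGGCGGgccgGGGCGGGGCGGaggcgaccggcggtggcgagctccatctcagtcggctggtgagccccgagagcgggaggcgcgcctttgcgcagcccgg
Grin2d: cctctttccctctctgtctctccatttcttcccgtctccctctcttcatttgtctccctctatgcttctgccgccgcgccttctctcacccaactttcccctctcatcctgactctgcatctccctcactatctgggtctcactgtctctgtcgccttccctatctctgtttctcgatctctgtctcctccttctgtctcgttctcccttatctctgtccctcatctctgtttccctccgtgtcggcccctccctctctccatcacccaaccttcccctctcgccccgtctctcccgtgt
The Grin2c stretch held 3 GC boxes, of which the last pair overlap, the Grin1 stretch held 1 and the Grin2d stretch held none. A GC box was present in 35.7% of the 32851 promoters in the table. GC content was 60.7% for Grin1, 70.0% for Grin2c and 56.0% for Grin2d, against a median of 52.7% over all promoters. None of the 3 stretches held the glucocorticoid receptor half-site AGAACA on either strand, which was present in 19% of all promoters. A match is a match of letters only.

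Libraries held 19589425 to 31236974 counts, with a median of 22418677, and each member had at least 273 counts in every library. Levels below are CPM, each gene's count scaled to its library's total, on a single TMM scale over the 95 libraries, and levels of different genes are compared only as CPM per kilobase of exon. Fkbp5 was called lower in knockouts of the Nex hippocampus (log2 fold change -0.99 in males and -1.07 in females) and of the Dlx bed nucleus (-2.41 and -1.66), but not in Nex bed nucleus or Dlx hippocampus. Its level was 19.6 to 37.6 CPM in Nex hippocampus knockout males against 45.1 to 58.3 CPM in wild types, and 20.1 to 35.5 against 51.6 to 65.5 CPM in the females (lowest to highest library). In Dlx bed nucleus it was 4.72 to 8.26 CPM in knockout males against 31.0 to 36.0 CPM in wild types, and 5.12 to 12.3 against 23.2 to 29.8 CPM in the females. In wild types, 7 or 8 of 8 dentate granule cell markers were called higher in hippocampus and 10 of 10 striatal projection neuron markers lower there, in each line and sex. Also lower in hippocampus were 7 or 8 of 10 GABAergic neuron markers and 8 of 8 oligodendrocyte markers. The bed nucleus dissections differed among themselves: their summed striatal markers ran from 186 to 6546 CPM, against 163 to 313 CPM in hippocampus. Dlx hippocampus knockout female replicate 8 stood apart with 17863 genes detected, against 23552 or more in every other library. Fewer cells of a type and less RNA per cell cannot be told apart in such bulk tissue.

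Grin1, the obligatory subunit, was the most abundant member per kilobase in all 16 groups. In Nex hippocampus it averaged 486 ± 30.2 CPM in male knockouts and 537 ± 35.5 CPM in male wild types, and 538 ± 16.9 CPM in female knockouts and 536 ± 44.9 CPM in female wild types (SD, n = 5 male knockouts and 6 in every other group, here and below). In Dlx hippocampus it averaged 589 ± 31.1 CPM in male knockouts and 549 ± 50.3 CPM in male wild types, and 621 ± 119.9 CPM in female knockouts and 600.1 ± 55.0 CPM in female wild types. The Dlx female knockout mean included replicate 8 at 841 CPM, the highest Grin1 level of all libraries. In Nex bed nucleus Grin1 averaged 394 ± 64.4 CPM in male knockouts and 381 ± 57.3 CPM in male wild types, and 366 ± 24.0 CPM in female knockouts and 352 ± 39.3 CPM in female wild types, and in Dlx bed nucleus 372 ± 46.1 CPM in male knockouts and 363 ± 25.5 CPM in male wild types, and 329 ± 37.0 CPM in female knockouts and 333 ± 37.0 CPM in female wild types. The 8 hippocampal means stood above the 8 bed nucleus means. Ordered from high to low, the 16 means left 15 gaps between neighbours, of which 2 were wider than the larger SD of the pair.

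Grin2a, which encodes the subunit that gives the fastest decay, separated the regions completely. How many of all genes do so was not counted. In Nex hippocampus it averaged 404 ± 172 CPM in male knockouts and 414 ± 94.8 CPM in male wild types, and 343 ± 33.4 CPM in female knockouts and 334 ± 45.4 CPM in female wild types. In Dlx hippocampus it averaged 431 ± 44.9 CPM in male knockouts and 366 ± 95.5 CPM in male wild types, and 377 ± 79.2 CPM in female knockouts and 381 ± 50.99 CPM in female wild types. The Nex male knockouts were the most uneven of these groups, with 254, 255, 333, 578.6 and 598 CPM. In Nex bed nucleus the averages were 75.4 ± 9.02 CPM in male knockouts and 69.2 ± 24.0 CPM in male wild types, and 58.2 ± 10.5 CPM in female knockouts and 59.2 ± 13.1 CPM in female wild types, and in Dlx bed nucleus 46.4 ± 8.23 CPM in male knockouts and 53.2 ± 8.38 CPM in male wild types, and 46.2 ± 11.9 CPM in female knockouts and 46.2 ± 10.1 CPM in female wild types. Only the step from the lowest hippocampal to the highest bed nucleus group exceeded the larger SD of its neighbours. Within each region, the order of the 8 groups is therefore not resolved by their spread.

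Grin2b, whose subunit predominates early in development and binds CaMKII, followed Grin2a at a higher read level. In Nex hippocampus it averaged 729 ± 273 CPM in male knockouts and 763 ± 131 CPM in male wild types, and 668 ± 111 CPM in female knockouts and 632 ± 70.1 CPM in female wild types, and in Dlx hippocampus 769.8 ± 70.3 CPM in male knockouts and 638 ± 181 CPM in male wild types, and 486 ± 198 CPM in female knockouts and 582.5 ± 114 CPM in female wild types. Replicate 8 of the Dlx female knockouts had 91.8 CPM, where the other 5 had 495 to 622 CPM. In Nex bed nucleus Grin2b averaged 305 ± 67.8 CPM in male knockouts and 321 ± 115 CPM in male wild types, and 310.1 ± 88.0 CPM in female knockouts and 309 ± 66.4 CPM in female wild types. In Dlx bed nucleus it averaged 186 ± 44.9 CPM in male knockouts and 216 ± 29.3 CPM in male wild types, and 169 ± 14.4 CPM in female knockouts and 166 ± 69.5 CPM in female wild types. The 4 Nex bed nucleus means all lay above the 4 Dlx ones. The step between these 2 sets was the only 1 of 15 neighbouring gaps wider than the larger SD.

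Grin2c had medians of 91.2 CPM in hippocampus and 89 CPM in bed nucleus over all libraries. In Nex hippocampus it averaged 78.5 ± 5.58 CPM in male knockouts and 89.2 ± 12.7 CPM in male wild types, and 87.6 ± 9.19 CPM in female knockouts and 91.3 ± 12.5 CPM in female wild types, and in Dlx hippocampus 91.3 ± 9.10 CPM in male knockouts and 103 ± 16.1 CPM in male wild types, and 108 ± 26.9 CPM in female knockouts and 105 ± 11.2 CPM in female wild types. In Nex bed nucleus the averages were 78.5 ± 9.005 CPM in male knockouts and 81.9 ± 14.9 CPM in male wild types, and 80.9 ± 8.47 CPM in female knockouts and 82.1 ± 12.3 CPM in female wild types, and in Dlx bed nucleus 104 ± 20.4 CPM in male knockouts and 100.3 ± 9.32 CPM in male wild types, and 90.4 ± 26.1 CPM in female knockouts and 85.3 ± 17.1 CPM in female wild types. None of the 15 neighbouring gaps exceeded the larger SD, so no order of the groups is resolved. Replicate 8 again held the highest value of any library, 159.8 CPM.

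Grin2d, which encodes the slowest-decaying GluN2 subunit, ran the other way. In Nex hippocampus it averaged 32.1 ± 13.6 CPM in male knockouts and 29.4 ± 7.76 CPM in male wild types, and 35.5 ± 8.18 CPM in female knockouts and 33.7 ± 10.9 CPM in female wild types. In Dlx hippocampus it averaged 25.4 ± 4.62 CPM in male knockouts and 33.5 ± 7.65 CPM in male wild types, and 29.6 ± 2.11 CPM in female knockouts and 32.9 ± 7.28 CPM in female wild types. Nex bed nucleus held 49.8 ± 13.8 CPM in male knockouts and 51.5 ± 24.9 CPM in male wild types, and 63.4 ± 12.7 CPM in female knockouts and 62.5 ± 20.6 CPM in female wild types. Dlx bed nucleus held 57.4 ± 9.46 CPM in male knockouts and 66.6 ± 19.3 CPM in male wild types, and 88.8 ± 17.7 CPM in female knockouts and 84.2 ± 19 CPM in female wild types, and the females of that line were the 2 highest groups. The gap between the lowest bed nucleus mean and the highest hippocampal mean, both in the Nex line, was the only one wider than the larger SD.

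Grin3a, the GluN3 subunit gene, shared that direction. In Nex hippocampus it averaged 36.2 ± 12.7 CPM in male knockouts and 36.1 ± 7.94 CPM in male wild types, and 35.01 ± 2.58 CPM in female knockouts and 32.8 ± 7.10 CPM in female wild types, and in Dlx hippocampus 28.1 ± 2.84 CPM in male knockouts and 28.3 ± 5.84 CPM in male wild types, and 27.5 ± 9.11 CPM in female knockouts and 28.6 ± 4.07 CPM in female wild types. Nex bed nucleus held 55.9 ± 23.5 CPM in male knockouts and 55.9 ± 21.8 CPM in male wild types, and 65.1 ± 12.9 CPM in female knockouts and 70.5 ± 18.9 CPM in female wild types, and Dlx bed nucleus 49.4 ± 5.28 CPM in male knockouts and 56.7 ± 13.1 CPM in male wild types, and 82.5 ± 9.84 CPM in female knockouts and 75.3 ± 16.4 CPM in female wild types. Again the boundary between the regions was the only 1 of 15 neighbouring gaps that exceeded the larger SD.

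**Figure D1:**
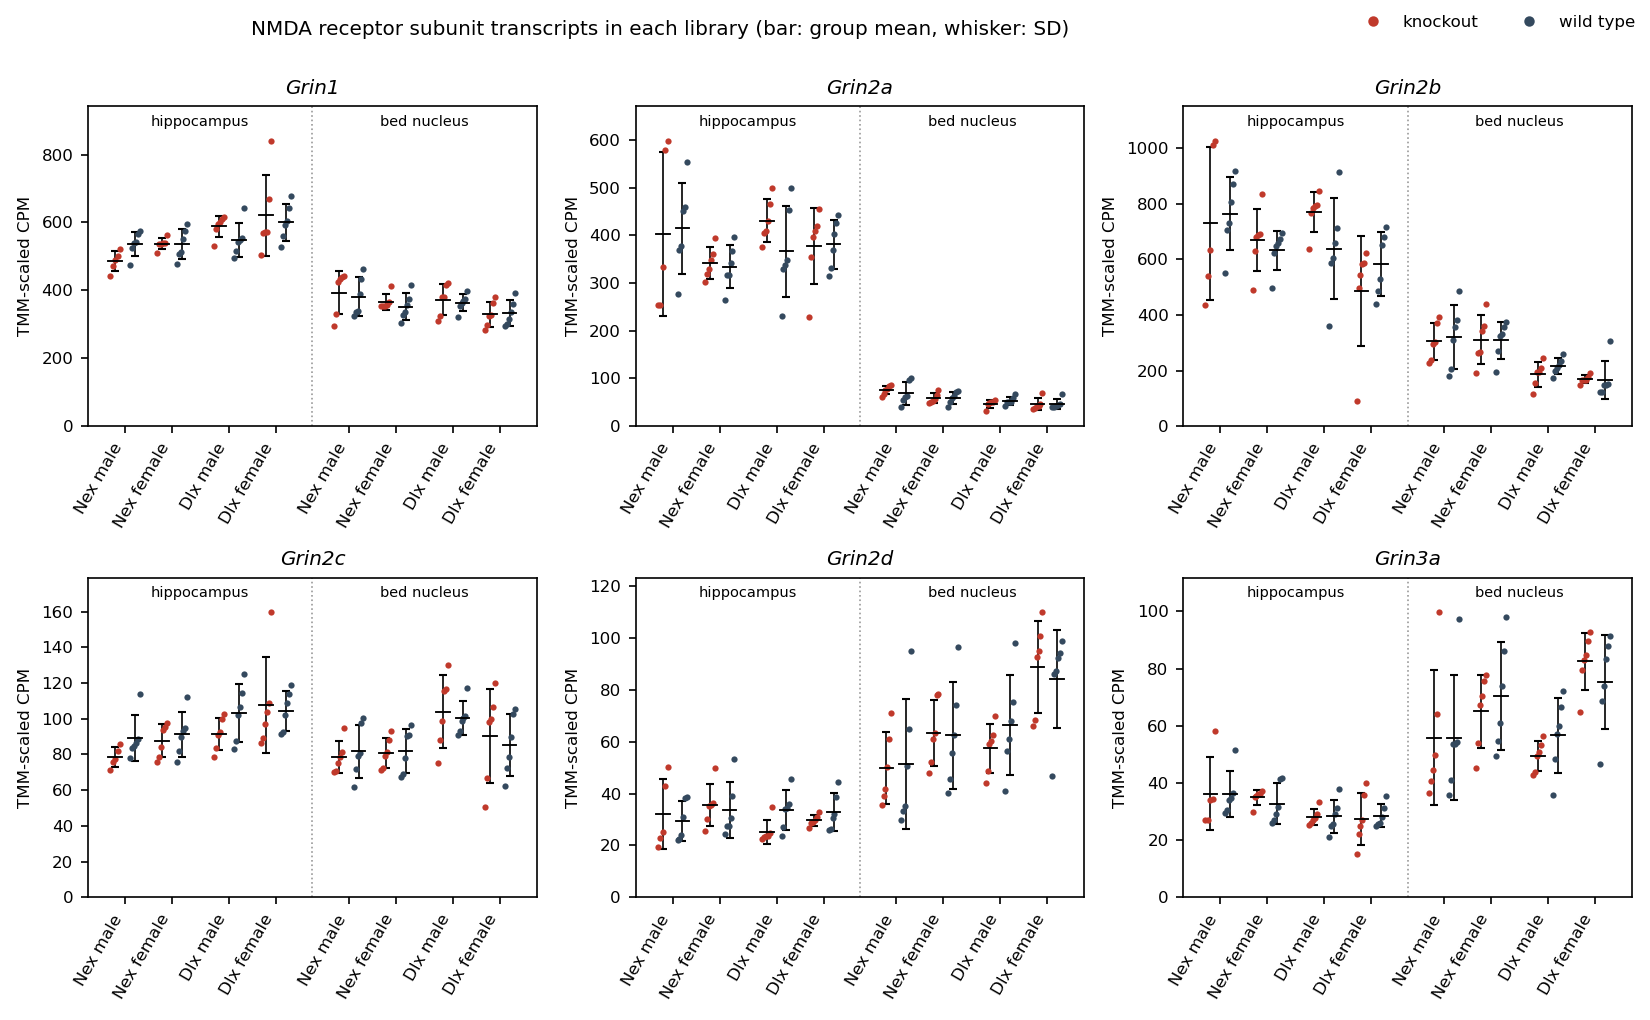
TMM-scaled CPM of each subunit gene (vertical axis) in each of the 95 libraries, by region, line and sex (horizontal axis), with knockouts left of wild types in each pair, group means as bars and SD as whiskers. Grin2a has no overlap between regions, with hippocampal libraries from 229.8 CPM upward and bed nucleus libraries up to 100.4 CPM, while the Grin2c clouds overlap throughout.

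Per kilobase, the summed level of the 6 genes had a median of 129 CPM per kilobase in the 47 hippocampal libraries (range 105 to 152) and 82.8 CPM per kilobase in the 48 bed nucleus libraries (range 72.8 to 94.2). Grin1 made up a median of 43.9% of that sum in hippocampus and 44.6% in bed nucleus. The obligatory subunit thus held a like share of the total in both regions, whereas the GluN2 genes did not. Of the summed GluN2 level, Grin2a took a median of 29.5% in hippocampus and 7.43% in bed nucleus, with no overlap between libraries of the regions. For Grin2b the medians were 37.0% in hippocampus and 22.6% in bed nucleus. Grin2c took 26.3% in hippocampus and 42.9% in bed nucleus, and Grin2d 6.46% in hippocampus and 23.2% in bed nucleus. By these medians Grin2c was the leading GluN2 transcript of the bed nucleus. Single libraries overlapped there, with Grin2b shares of 11.5% to 42.2% and Grin2c shares of 32.7% to 62.8%. Exon length over all isoforms is longer than any single transcript, most of all for Grin2b at 24842 bases, so these shares rest on the deposited lengths.

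**Figure D2:**
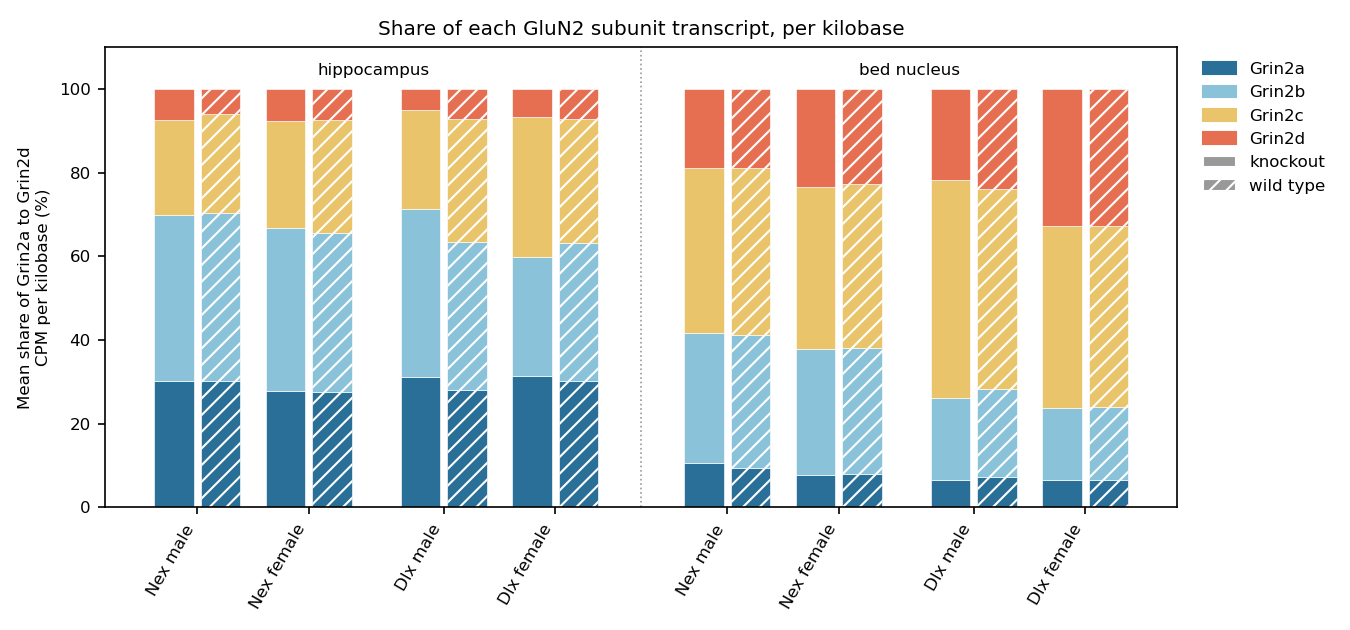
Mean share of Grin2a, Grin2b, Grin2c and Grin2d in their summed CPM per kilobase (vertical axis, %) in each of the 16 groups, with knockouts (plain) left of wild types (hatched). Grin2a and Grin2b together make up the larger part in every hippocampal group, and Grin2c and Grin2d in every bed nucleus group.

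By mean level per kilobase, 6 of the 8 hippocampal groups shared the order Grin1, Grin2b, Grin2a, Grin2c, Grin2d, Grin3a. The exceptions were Dlx wild-type males, where Grin2c stood above Grin2a, and Dlx female knockouts, where Grin2c and Grin2a stood above Grin2b. In those males the means of Grin2c and Grin2a per kilobase differed by less than their SDs. The female knockout means included replicate 8, with 91.8 CPM of Grin2b (others 495 to 622) and 159.8 CPM of Grin2c (others 86.4 to 109). In bed nucleus the 4 Nex groups gave Grin1, Grin2c, Grin2b, Grin2d, Grin3a, Grin2a, and in the 4 Dlx groups Grin2d stood above Grin2b. By these means Grin2a was the lowest member in all 8 bed nucleus groups. In Nex males of either genotype it lay below Grin3a by less than the SD of Grin3a per kilobase. Gaps between other members were not set against their spread, and these orders also rest on the deposited lengths.

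The regional comparison was tested in wild types within each line and sex with edgeR's quasi-likelihood test and Benjamini-Hochberg adjustment over all genes tested, a call being an adjusted p under 0.05. Grin1, Grin2a and Grin2b were called higher in hippocampus in all 4 comparisons, Grin2d lower in all 4 and Grin3a lower in 3, while Grin2c was called in none. That made 19 calls in 24 tests. Over all genes, 35.7% were called in Nex males, 52.8% in Nex females, 46.7% in Dlx males and 30.0% in Dlx females, so a call as such is common between these tissues. Split by direction, 16.7% were higher and 19% lower in hippocampus in Nex males, 26.4% and 26.4% in Nex females, 22.6% and 24.2% in Dlx males, and 14.9% and 15.2% in Dlx females. The marker lists above differed between the regions as well, and their part in the members' differences was not tested.

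Grin2a had the largest regional difference of the 6. In Nex males its lowest, median and highest values were 277, 414 and 553.1 CPM in hippocampus and 40.2, 61.6 and 100.4 CPM in bed nucleus. Nex females had 265, 329 and 396 CPM in hippocampus and 39.2, 60.3 and 73.4 CPM in bed nucleus. No wild-type bed nucleus library of either line reached the lowest hippocampal one. Dlx males had 231, 343 and 498.3 CPM in hippocampus and 42.8, 50.2 and 66.6 CPM in bed nucleus, and Dlx females 316, 386 and 442 CPM in hippocampus and 40.0, 42.6 and 66.3 CPM in bed nucleus. The log2 fold changes were 2.59 (SE 0.239, adjusted p = 7.81e-09) in Nex males and 2.49 (SE 0.133, adjusted p = 3.58e-14) in Nex females. They were 2.78 (SE 0.156, adjusted p = 1.76e-13) in Dlx males and 3.03 (SE 0.171, adjusted p = 6.03e-12) in Dlx females by edgeR.

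Grin2b was higher in hippocampus too. In Nex males it had 551, 768 and 916 CPM in hippocampus and 181, 333 and 487 CPM in bed nucleus as lowest, median and highest, with a log2 fold change of 1.26 (SE 0.229, adjusted p = 1.18e-04). In Dlx females it had 439, 589 and 716 CPM in hippocampus and 123, 148 and 306 CPM in bed nucleus, with 1.79 (SE 0.291, adjusted p = 3.93e-05) by edgeR. The highest of those bed nucleus libraries was replicate 1, whose summed striatal markers were 4294 CPM against 1073 to 1453 CPM in the other 5, and without it the log2 fold change was 2.05. Its part in the Grin2b value was not tested beyond that. The fold changes in Nex females and Dlx males were 1.03 and 1.56. Grin1 differed by 0.50 to 0.83, and all hippocampal wild types lay above all bed nucleus wild types (475 CPM or more, against 463 CPM or less). Its antisense neighbour Grin1os had log2 fold changes of 0.48, 0.88, 0.46 and 0.78 in Nex males, Nex females, Dlx males and Dlx females, of which the first was not called.

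Grin2d and Grin3a were lower in hippocampus. In Dlx females, Grin2d had 25.8, 31.2 and 44.3 CPM in hippocampus and 46.6, 89.8 and 98.6 CPM in bed nucleus, without overlap, and a log2 fold change of -1.37 (SE 0.166, adjusted p = 7.27e-07). In Nex males the same gene overlapped, with 22.1, 27.5 and 38.8 CPM in hippocampus and 30.0, 43.1 and 94.8 CPM in bed nucleus, a log2 fold change of -0.80 (SE 0.278, adjusted p = 0.0267) by edgeR. That last call was lost when any of 3 hippocampal or 2 bed nucleus libraries was left out, with an adjusted p of up to 0.106 by edgeR. Over all 23 libraries of the fit left out in turn, the log2 fold change ran from -0.92 to -0.54. Grin3a in Dlx females had 25.1, 27.1 and 35.6 CPM in hippocampus and 46.8, 78.6 and 91.5 CPM in bed nucleus, with -1.42 (SE 0.181, adjusted p = 1.68e-06). Its Nex male comparison missed the threshold at -0.63 (SE 0.251, adjusted p = 0.0555), and DESeq2 called it with an adjusted p of 0.0369. Without 1 of the Nex bed nucleus wild-type males, at 97.4 CPM and with the lowest striatal marker sum of its group (614 CPM), the Grin3a log2 fold change was -0.40. Leaving out any of 6 other libraries of the fit turned the missed comparison into a call, with a lowest adjusted p of 0.0269 by edgeR. Over all 23 libraries left out in turn, the Grin3a log2 fold change ran from -0.75 to -0.40. For Grin2c, the 4 log2 fold changes lay between 0.04 and 0.27, and their 95% intervals between -0.20 and 0.66.

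**Figure D3:**
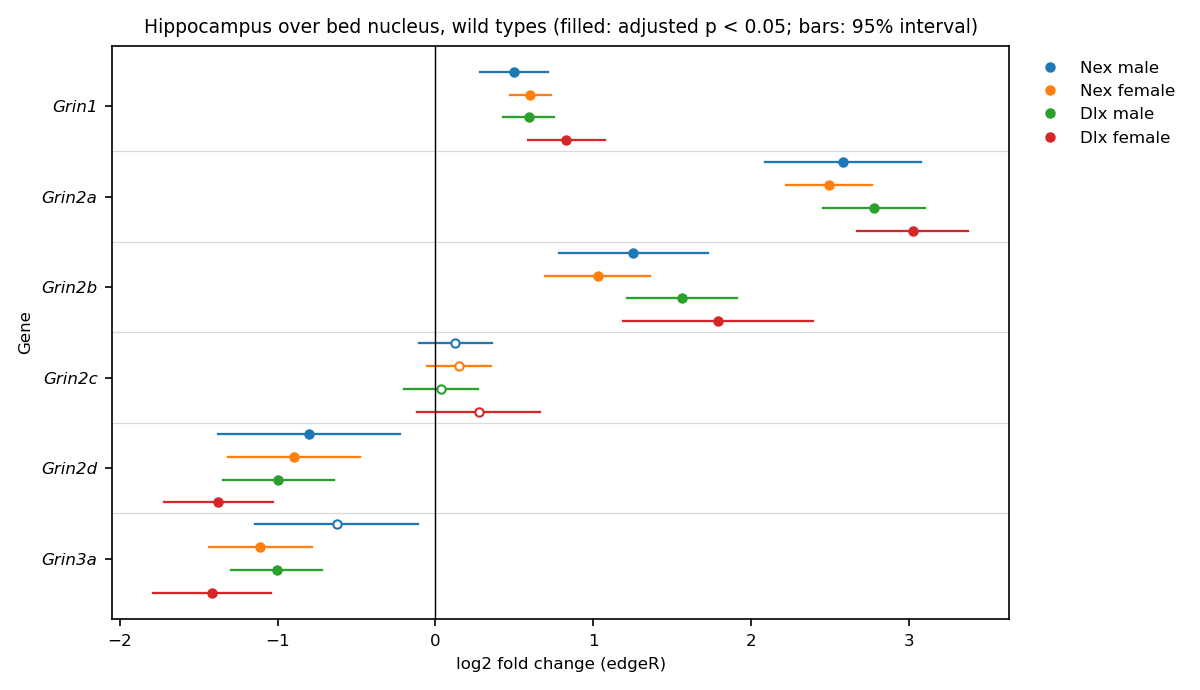
Log2 fold change of hippocampus over bed nucleus in wild types (horizontal axis, edgeR, with 95% interval) for each subunit gene and each line and sex, filled where the adjusted p was under 0.05. Grin2a lies between 2.49 and 3.03, Grin2c lies near 0 and is never filled, and Grin2d and Grin3a lie below 0.

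The balance of Grin2a to Grin2b was taken in each library as the log2 ratio of their counts per kilobase and compared with two-sided exact permutation tests, adjusted over 20 comparisons. In Nex males it was -0.42 ± 0.10 in hippocampus and -1.73 ± 0.28 in bed nucleus (SD, n = 6 each in an exact permutation test). Nex females had -0.45 ± 0.11 in hippocampus and -1.91 ± 0.07 in bed nucleus. Dlx males had -0.32 ± 0.12 in hippocampus and -1.55 ± 0.15 in bed nucleus, and Dlx females -0.13 ± 0.13 in hippocampus and -1.32 ± 0.23 in bed nucleus. The ratio leaned further to Grin2a in hippocampus in every line and sex. The differences were 1.31, 1.46, 1.23 and 1.19, each without overlap and at the smallest p that 6 against 6 allow in an exact permutation test (0.00216, adjusted 0.00866).

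Knockout of Fkbp5 moved the balance past the threshold in none of 8 comparisons, and 8 exact permutation tests gave adjusted p-values of 0.226 or more. The widest difference, 0.42 in Dlx hippocampus females, came with knockout values from -0.14 to 1.79 and wild-type values from -0.359 to -0.00385. Replicate 8 held the 1.79, and the next knockout library stood at 0.23. In wild-type females the balance was lower in the Nex than in the Dlx line, with a difference of -0.32 in hippocampus (exact permutation test, adjusted p = 0.0144) and of -0.59 in bed nucleus (exact permutation test, adjusted p = 0.00866, no overlap). Dlx hippocampus males were lower than females, with a difference of -0.19 (exact permutation test, adjusted p = 0.0495), a call that was lost on leaving out any of 4 males or 5 females of these 12 libraries. Marker sums moved with these groups. In wild-type hippocampus females the median CA1 pyramidal sum was 694 CPM in the Nex line and 1093 CPM in the Dlx line, and the median dentate granule sum 1083 CPM in the Nex line and 636 CPM in the Dlx line. In bed nucleus females the median striatal sum was 2837 CPM in the Nex line and 1239 CPM in the Dlx line. In Dlx hippocampus the median dentate sum was 1328 CPM in males and 636 CPM in females. The part of these sums in the differences was not tested. Neither sex nor line can be told apart from shared collection here.

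**Figure D4:**
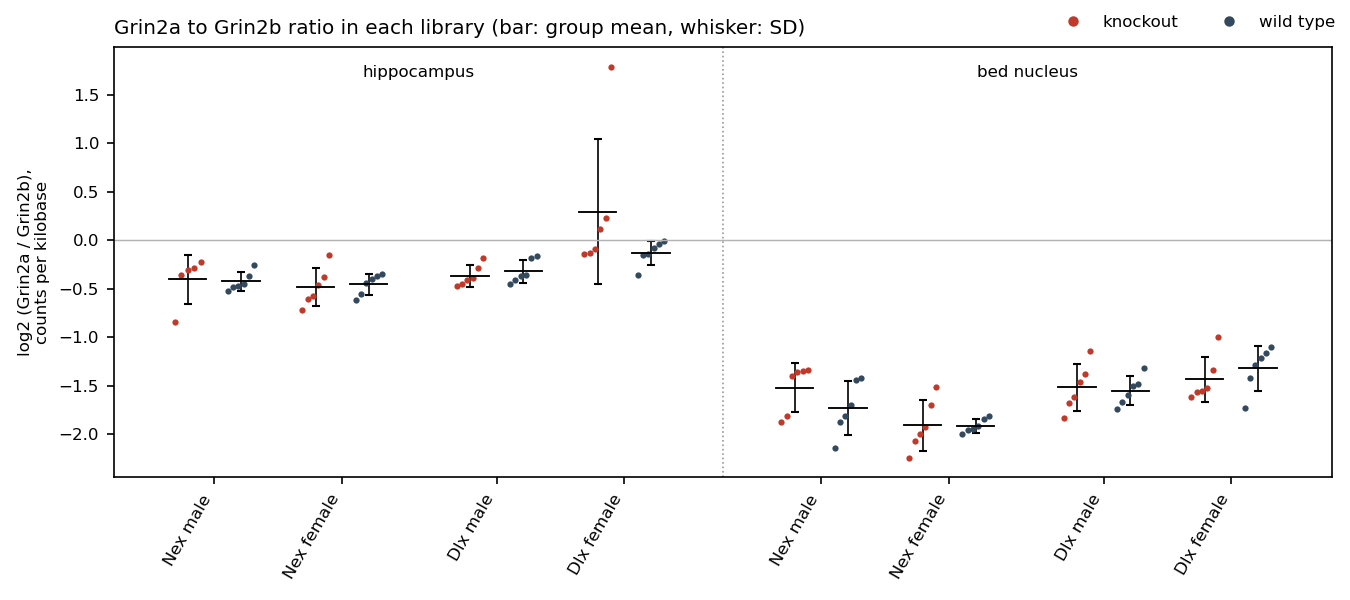
Log2 ratio of Grin2a to Grin2b counts per kilobase (vertical axis) in each library by region, line and sex, with knockouts left of wild types, group means as bars and SD as whiskers. All hippocampal libraries lie above all bed nucleus libraries, and 1 Dlx female knockout stands at 1.79.

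No member was called between knockouts and wild types in any of the 8 comparisons by edgeR, nor by DESeq2 or limma voom, in 48 tests. Over all genes, 0.0106% were called in Nex hippocampus males and as many in females, 0.00539% in Dlx bed nucleus of each sex, and 0% in the other 4 comparisons. An unadjusted p under 0.05 was reached in 2 of the 48 tests. Grin1 in Nex hippocampus males had 443, 473, 489.7, 500.4 and 523 CPM in knockouts and 475, 540.5 and 576 CPM (lowest, median, highest) in wild types, overlapping groups with a log2 fold change of -0.14 (SE 0.0601, adjusted p = 0.439) by edgeR. Grin2d in Dlx hippocampus males had 22.5, 23.5 and 34.7 CPM in knockouts and 23.7, 34.3 and 45.7 CPM in wild types, with -0.41 (SE 0.149, adjusted p = 0.998) by edgeR. Of those knockout libraries 5 lay between 22.5 and 24.8 CPM, and the remaining one had 34.7 CPM.

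The 48 log2 fold changes lay between -0.41 and 0.27. Their 95% intervals differed in width: for Grin1 they stayed within -0.27 to 0.31, whereas for Grin2b they reached from -0.83 to 0.83. Grin2b in Dlx hippocampus females had 91.8, 562 and 622 CPM in knockouts and 439, 589 and 716 CPM in wild types, a log2 fold change of -0.26. Without replicate 8 it was -0.04. Of the other 5 members in that comparison 4 changed sign without this library: Grin1 had -0.06 in place of 0.06, Grin2a 0.09 in place of -0.01, Grin2c -0.11 in place of 0.06 and Grin3a 0.07 in place of -0.05. In the 2 settings where Fkbp5 itself fell, Nex hippocampus and Dlx bed nucleus, the members' log2 fold changes ran from -0.21 to 0.13. Without Dlx bed nucleus wild-type female replicate 1, the Grin2b log2 fold change in Dlx bed nucleus females was 0.28 in place of 0.02 (adjusted p = 0.689 by edgeR), and that of Grin2a was 0.12 in place of -0.01.

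**Figure D5:**
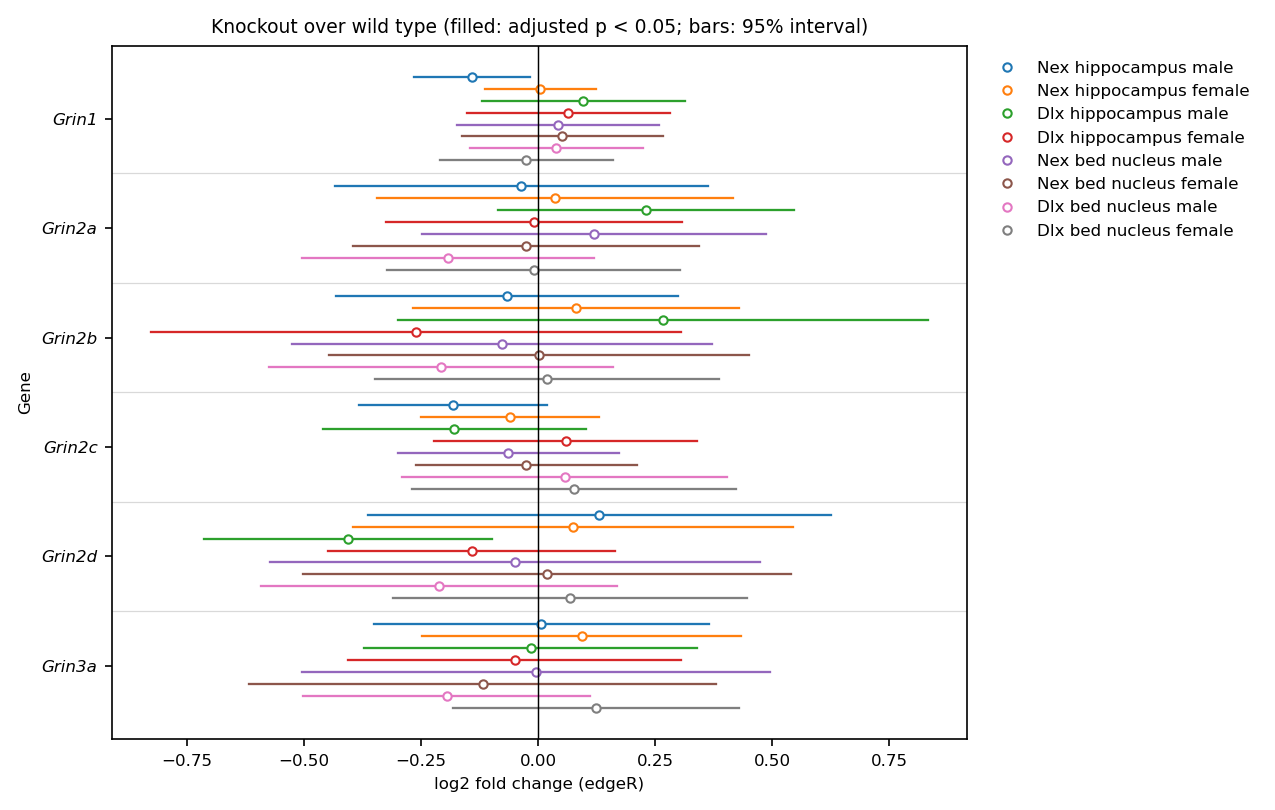
Log2 fold change of knockout over wild type (horizontal axis, edgeR, with 95% interval) for each subunit gene in the 8 combinations of line, region and sex. All 48 points are open, meaning an adjusted p of 0.05 or more, and 46 of the 48 have an unadjusted p of 0.05 or more.

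Whether the genotype effect differed between the sexes, lines or regions was tested with interaction terms, 24 tests for each question. None was called for a member, with smallest adjusted p-values of 0.66 for sex, 0.795 for line and 0.401 for region by edgeR. DESeq2 called none of them either. Over all genes, 0% were called in the 4 sex interactions. For line the shares were 0% in hippocampus males, 0.00516% in hippocampus females and 0.00515% in bed nucleus of each sex. For region they were 0% in Nex males, 0.00529% in Nex females, 0.0107% in Dlx males and 0.0054% in Dlx females. The 1 unadjusted p under 0.05 among the 72 was for Grin2a in Dlx males, where the knockout effect was higher in hippocampus than in bed nucleus by 0.43 on the log2 scale (SE 0.207, unadjusted p = 0.0488 by edgeR). Single libraries moved the sex interaction of Grin2b. In Dlx bed nucleus it was -0.49 without wild-type female replicate 1 (unadjusted p = 0.0139, adjusted p = 0.379 by edgeR) in place of -0.23. In Dlx hippocampus it was 0.32 without knockout female replicate 8 in place of 0.53.

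Between wild-type males and females no member was called by edgeR in 24 tests, while over all genes 0.117% were called in Nex hippocampus, 0.230% in Dlx hippocampus, 0.0535% in Nex bed nucleus and 0.0701% in Dlx bed nucleus. DESeq2 called no member either, and 1 unadjusted p was under 0.05. Limma voom with quality weights called 3 members in Dlx bed nucleus, Grin3a lower in males among them, and 1366 genes in all there. Grin3a in Dlx bed nucleus came nearest, with 35.9, 58.5 and 72.3 CPM in males and 46.8, 78.6 and 91.5 CPM in females and a log2 fold change of -0.42 (SE 0.149, adjusted p = 0.336). The lowest female was again replicate 1. Without it, edgeR called Grin3a lower in males (-0.54, adjusted p = 0.038) and Grin2b higher (0.62, adjusted p = 0.0187), among 331 genes called then against 13 with it. Summed striatal markers were 1698 to 5203 CPM in these males and, leaving out replicate 1, 1073 to 1453 CPM in the females, and their part in the difference was not tested. Males and females of each line carried separate ranges of title numbers, so sex and any shared collection cannot be told apart.

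Between the lines, wild types differed for 1 member in 24 tests. Over all genes, 0% were called in hippocampus of either sex, 0.597% in bed nucleus males and 0.695% in bed nucleus females. Grin2b in bed nucleus females had 195, 328 and 376 CPM in the Nex line and 123, 148 and 306 CPM in the Dlx line, with a log2 fold change of 0.89 (SE 0.208, adjusted p = 0.0264) by edgeR. Replicate 1 of the Dlx line was the single Dlx library inside the Nex range, and without it the value was 1.15 (adjusted p = 9.87e-04). The call was lost on leaving out any of 4 Nex females or of the other 5 Dlx females, and in a fit of these groups alone (adjusted p = 0.105). In bed nucleus males, Grin2b had 181, 333 and 487 CPM in the Nex line and 173, 216 and 258 CPM in the Dlx line, with 0.57 (SE 0.207, adjusted p = 0.194). A further 3 tests had an unadjusted p under 0.05 without a call: Grin2a in bed nucleus, 0.38 in males and 0.35 in females, and Grin3a in hippocampus males at 0.35. Summed striatal markers moved with this difference: in wild-type bed nucleus their median was 2837 CPM in Nex females (range 867 to 5281) and 1239 CPM in Dlx females (1073 to 1453 in 5 of them and 4294 in replicate 1). Their part in the difference was not tested. Line and shared collection cannot be told apart in this design.

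Within groups the members did not vary independently. After subtracting group means from log2 CPM, Grin2a and Grin2b deviated together in hippocampus (Pearson's r = 0.80, Spearman's rho = 0.86, 47 libraries) and in bed nucleus (r = 0.80, rho = 0.77, 48 libraries). Grin2a and Grin2d deviated in opposite directions (r = -0.70 in hippocampus and -0.69 in bed nucleus, rho = -0.65 and -0.65). All 4 had a permutation p for r of 1e-05, the smallest that 100000 resamples can give, and 3.75e-05 after adjustment over 30 relations. For rho the adjusted permutation p was 1.12e-04 or less. Without the 2 libraries farthest from the median r stayed at 0.79, 0.80, -0.65 and -0.73. Grin2d and Grin3a rose and fell together in bed nucleus (r = 0.83, rho = 0.83, permutation p = 1e-05 for both) and less closely in hippocampus (r = 0.41, rho = 0.42, adjusted permutation p = 0.0122 and 0.0143), a difference that was not tested. Without the 2 farthest libraries their r was 0.78 in bed nucleus and 0.26 in hippocampus. Grin1 and Grin2c in hippocampus gave r = 0.44 (adjusted permutation p = 0.0401) and rho = 0.27 (adjusted permutation p = 0.112), and r fell to 0.15 without the 2 farthest libraries and so rests on them. Pooled within-group SDs on the log2 scale ran from 0.13 for Grin1 to 0.49 for Grin2b in hippocampus, and from 0.17 for Grin1 to 0.41 for Grin2d in bed nucleus. The hippocampal Grin2b SD includes Dlx knockout female replicate 8, which had the lowest deviation, -2.18, where the highest was 0.58.

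The same deviations moved with the sums of many marker lists. In bed nucleus, libraries with more striatal projection neuron markers than their group had less Grin2d (r = -0.84, rho = -0.86) and less Grin3a (r = -0.84, rho = -0.87). They had more Grin1 (r = 0.66, rho = 0.71) and more Grin2b (r = 0.63, rho = 0.68), each with an adjusted permutation p of 1.20e-04 or less over 120 relations. In hippocampus, Grin2d rose with thalamic markers (r = 0.74, rho = 0.68) and fell with CA1 pyramidal markers (r = -0.75, rho = -0.68). Grin2a did the reverse, with r = 0.70 for CA1 (rho = 0.73) and -0.67 for thalamic markers (rho = -0.68), and for r these 4 had adjusted permutation p-values of 7.06e-05 or less. For rho the adjusted permutation p of all 8 was 1.33e-04 or less. Without the 2 libraries farthest from the median of the marker sum, the 8 values of r lay at 0.68 or more in size. Other lists moved with the members as well, by an adjusted permutation p for r under 0.05. In bed nucleus all 6 members did so with GABAergic as with striatal sums, and 5 each with CA1, CA3 and CA2, astrocyte and thalamic sums. Grin1 there had r = -0.79 with astrocyte and 0.78 with CA3 and CA2 sums. The CA1 sums of all bed nucleus libraries lay within the range of the hippocampal ones, so that list does not separate the regions. CA3 and CA2 sums were lower in every bed nucleus library than in any hippocampal one. Which cells the CA1, CA3 and CA2 sums stand for in bed nucleus was not tested. In hippocampus 4 members each did so with CA1, thalamic, striatal and microglial sums, and 0 with GABAergic, astrocyte and oligodendrocyte sums. By rho Grin2c did move with astrocyte sums (r = 0.36, adjusted permutation p = 0.0828, rho = 0.44, adjusted permutation p = 0.0118). Without the 2 farthest libraries, r for microglial sums went from 0.68 to 0.37 for Grin1 and from 0.54 to 0.22 for Grin2c. It went from -0.59 to -0.40 for Grin3a and from -0.33 to -0.47 for Grin2d. Dlx female knockout replicate 8 held the highest microglial sum, 1001 CPM. Summed thalamic markers ran from 129 to 1251 CPM over the hippocampal libraries. What these sums contribute to the differences between groups was not tested.

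The other genes of the pathway were read from lists of 57 symbols for co-agonist and glutamate supply, other Grin genes, scaffolds, and kinases and phosphatases, of which 56 were found. None of the 55 or 56 tested was called between genotypes, between sexes or in an interaction. Between the regions, 27 were higher and 15 lower in hippocampus in Nex males, 31 and 18 in Nex females, 28 and 16 in Dlx males and 27 and 9 in Dlx females, with median log2 fold changes of 0.36, 0.34, 0.40 and 0.31 against medians of all genes between -0.02 and 0.01. In all, 76.4%, 89.1%, 80.0% and 65.5% of the pathway genes were called, beside 35.7%, 52.8%, 46.7% and 30.0% of all genes. By direction, 14.9% to 26.4% of all genes were higher and 15.2% to 26.4% lower in hippocampus. The kinase and phosphatase list held 13 to 15 of 20 genes higher in hippocampus and 1 to 3 lower. Camk2a, the alpha subunit of the kinase that binds GluN2B, was higher by 2.18 to 2.90 on the log2 scale. The scaffold genes Dlg3 (1.05 to 1.17) and Dlgap1 (1.71 in Nex females and 1.89 in Dlx females) and the neuronal glutamate transporter gene Slc1a1 (0.90 in Nex females) were higher too. Ptpn5, a phosphatase enriched in striatum, had a log2 fold change of -1.59 in Dlx males. Between the lines, Akap9, an anchoring protein of the GluN1 tail, was higher in the Nex line in bed nucleus females (0.65, edgeR adjusted p = 0.0273), and was the only one called there.

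The genes whose deviations within groups were most like those of each member, by Spearman's rho over 15596 genes in hippocampus and 15694 in bed nucleus, are given as a description. Grin2b had Ryr3, an intracellular calcium release channel, first in both regions (rho = 0.92 in hippocampus and 0.94 in bed nucleus), followed in hippocampus by the potassium channel gene Kcnq3 and the metabotropic receptor gene Grm5 and in bed nucleus by Nin and B230334C09Rik. Grin2d had Cux2, Sema4g and Gpr153 in hippocampus (rho = 0.91 for Cux2) and Arl4c, Sema4g and Itga3 in bed nucleus (rho = 0.95 for Arl4c). Sema4g was thus among the 3 in both regions. Grin2a had Zeb2, Trim2 and Pls3 in hippocampus (rho = 0.94 for Zeb2) and Zbtb18, Pcmtd1 and Cacnb4 in bed nucleus. Grin1 had Dlgap4, Tspan5 and Kdm4b in hippocampus and Dbn1, Stk32c and Fam171a2 in bed nucleus. For Grin3a they were Nova1, Pik3r3 and Pcdh18 in hippocampus and Gng2, Fam149a and Phactr2 in bed nucleus. Grin2c had the loosest match of the 6 in hippocampus, Dhrs3 at 0.65 before Dlgap3 and Nsmf, and Inpp5j, Pacsin2 and Sema7a in bed nucleus (0.91 for Inpp5j). These points share dissection and library composition, which the marker sums above also track.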

How the data were processed

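RNA was extracted from snap-frozen brain tissue with miRNeasy kits and sequenced by Novogene, per the labels' protocols. The submitters' processing notes name HISAT2 2.0.5 and featureCounts 1.5.0-p3, and the genome build and strand setting are not given in the sources used here. The deposited table holds the authors' raw read counts per gene for 95 libraries. Its 95 FPKM columns and 40 columns of the authors' own comparisons were not used. The members, gene lists and tests were chosen with earlier results of these data known. Named genes beyond the members were those that rules ranked first by p or by likeness.

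Counts were filtered with filterByExpr and TMM-scaled. They were tested with edgeR 4.0.16 (R 4.3.3) by quasi-likelihood over 32 comparisons in 7 families, each adjusted over all genes tested by the Benjamini-Hochberg method. Fits were tested on simulated data. DESeq2 1.42.0 and limma 3.58.1 were alternatives, beside other filters, scalings, library sets and the replicate block. The Grin2a to Grin2b ratio took a pseudocount of 0.5 counts per gene. At 19589425 to 31236974 counts per library, differences between libraries and not counting error set the precision. Mouse, dissection and preparation cannot be told apart in those differences.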

Additional observations from a re-analysis of the deposited data

Results flagged for a closer look

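In 17 of 112 tests of a group's extreme library, 1 library lay farther from the rest than Dixon's 95% criterion allows, which chance alone does in about 1 in 20 groups. Of these, 6 came from 2 libraries that stood apart in several genes. Dlx hippocampus knockout female replicate 8 had 91.8 CPM of Grin2b where the other 5 had 495 to 622 CPM, 159.8 CPM of Grin2c where they had 86.4 to 109 CPM, and a log2 Grin2a to Grin2b ratio of 1.79 where they lay between -0.14 and 0.23. Its summed microglial markers were 1001 CPM, against 362 to 514 CPM in the others. Their part in these values was not tested.

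Dlx bed nucleus wild-type female replicate 1 had 66.3 CPM of Grin2a (others 40.0 to 45.6), 306 CPM of Grin2b (others 123 to 149.9) and 46.6 CPM of Grin2d (others 86.0 to 98.6), with the striatal marker sum given above. 

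The remaining 11 were single values. Grin1 stood at 413 CPM in 1 Nex bed nucleus knockout female (others 352 to 366). Grin2a stood at 30.7 CPM in 1 Dlx bed nucleus knockout male (others 45.8 to 54.2) and at 69.4 CPM in Dlx bed nucleus knockout female replicate 7 (others 36.8 to 47.3). That female's summed thalamic markers were 2041 CPM (others 161 to 753) and its striatal markers 186 CPM (others 526 to 2236), and their part in the value was not tested. Grin2b stood at 498.1 CPM in 1 Nex hippocampus wild-type female (others 623 to 696), and Grin2c at 114 CPM in 1 Nex hippocampus wild-type male (others 77.8 to 88.6). Grin2d stood at 34.7 CPM in 1 Dlx hippocampus knockout male (others 22.5 to 24.8). Grin3a stood at 58.1 CPM in 1 Nex hippocampus knockout male (others 27.1 to 34.5), at 29.9 CPM in 1 Nex hippocampus knockout female (others 35.1 to 37.1), at 51.4 CPM in 1 Nex hippocampus wild-type male (others 29.5 to 36.6) and at 97.4 CPM in 1 Nex bed nucleus wild-type male (others 35.7 to 54.4). The log2 Grin2a to Grin2b ratio stood at -0.84 in 1 Nex hippocampus knockout male (others -0.36 to -0.23).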

How the results depend on the processing

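No member changed direction past a threshold under any alternative. The counts of members called kept within 1.5 times their main value except in 3 comparisons of the bed nucleus. Limma voom with quality weights called 3 members between Dlx wild-type males and females (none by edgeR). Between the lines it called 1 in wild-type males (none by edgeR) and 3 in wild-type females (1 by edgeR). A fit of the compared groups alone called 0 in those females. Over all genes, limma voom called 1366 between Dlx males and females, and between the lines 814 in males and 3000 in females. The edgeR counts were 13, 116 and 135. Leaving out 1 library at a time gave 0 to 2 called between Dlx wild-type males and females and 0 to 1 between the lines in females. The count of male against female differences called in the Grin2a to Grin2b ratio then ran from 0 to 2, and the Dlx hippocampus difference from -0.24 to -0.17. With the replicate block (sign flips over 5 pairs, smallest p 0.0625), the regional differences in the ratio were 1.24 in Nex males, 1.20 in Dlx males and 1.17 in Dlx females, and missed the threshold. In Nex females, with 6 pairs, the difference was 1.46 (sign-flip permutation, exact p = 0.03125, the smallest possible). The block also called Grin3a lower in hippocampus in Nex males (-0.64). The labels do not say that shared numbers mark the same mouse, and the correlations between same-numbered libraries do not settle it. Of 42 same-numbered pairs 15 correlated above 0.1 (range -0.18 to 0.33). Of 84 libraries 29 correlated best with their own number, a hint of pairing. Same-numbered pairs had the higher median correlation in 6 of 8 sets of line, sex and genotype. The causes of these changes were not tested, and precision is set by 5 or 6 mice per group.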
